A study of Mus musculus with 6 samples.

Results

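The 10 genes described here encode the core of the transforming growth factor beta (TGF-beta) pathway: the ligand Tgfb1, the latency protein Ltbp3, the receptors Tgfbr1 and Tgfbr2, the signal transducers Smad2, Smad3, Smad4 and Smad7, and the nuclear corepressors Skil and Tgif1. They were chosen by gene symbol, and all 10 were found among the 40773 symbols of the count table. Their mRNA was measured by RNA sequencing in the mouse macrophage line RAW264.7, for which the labels name no genetic modification. In the LPS group the cells received 100 ng/mL of lipopolysaccharide (LPS) for 24 h. LPS is the outer membrane glycolipid of Gram-negative bacteria and is sensed by a Toll-like receptor. In the LPS plus 3A2 group the same dose of LPS was combined for 24 h with 3A2 (50 µg/mL), an antibody that neutralizes the membrane-bound matrix metalloproteinase MMP14. There were 3 biological replicates per group, each 1 library. Both groups carry LPS, so the comparison describes the antibody on top of LPS. The 6 libraries include no cells without LPS and no cells with a control antibody. Neutralizing MMP14 and adding an antibody as such therefore cannot be told apart.

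TGF-beta is secreted as a latent complex in which the mature ligand stays bound to its own propeptide, and latent TGF-beta binding proteins tether that complex to the extracellular matrix. Integrins and proteases, MMP14 among them, are known to release the active ligand, which brings the type II receptor TGFBR2 together with the type I receptor TGFBR1. The activated type I receptor phosphorylates SMAD2 and SMAD3, these join SMAD4 and enter the nucleus, and SMAD7, SKIL and TGIF1 restrain the signal. In macrophages the pathway is known for dampening inflammatory activation. Release of the ligand and phosphorylation of SMADs are events of protein, and only mRNA levels were measured here.

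Libraries held 6060732 to 7432553 counts, and levels are given in CPM, the usual depth-normalised read count, here with library totals scaled by the TMM method. All 7 macrophage markers tried were detected, and their sum was 5845 to 5936 CPM with LPS and 5002 to 5360 CPM with 3A2. Those ranges do not overlap. Lyz2 made up most of that sum and stood at 0.871-fold (95% interval 0.805 to 0.943; edgeR adjusted p = 0.719). Among the other macrophage markers Spi1 stood at 0.864-fold, Csf1r at 0.878-fold, Fcgr1 at 0.923-fold and Itgam at 0.942-fold. Cd68 stood at 0.988-fold and Adgre1 at 1.03-fold. Of the lymphocyte markers 7 of 8 were at 0 counts in all libraries, and the list summed to at most 0.668 CPM with LPS and 0.167 CPM with 3A2. Of the fibroblast markers 2 of 7 were at 0, with sums of 0.134 to 0.766 and 0.307 to 0.333 CPM. Of the neutrophil and mast cell markers 4 of 7 were at 0, with sums of 5.82 to 7.46 and 5.68 to 6.50 CPM. LPS plus 3A2 replicate 3 stood apart from the other libraries. Its chi-square per degree of freedom was 6.9 to 22.0 against the other 5, which among themselves gave 3.33 to 10.8. Its mitochondrially encoded mRNAs lay 0.45 above the mean of all libraries on the log2 scale, where the other libraries lay between -0.208 and 0.114. The part of these differences in the results for the pathway genes was not tested. In RNA from whole cultures, fewer cells that express a gene and less RNA per cell cannot be told apart.

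None of the 10 mRNAs passed the test between LPS with 3A2 and LPS alone. Of the 10, 9 were abundant enough to be tested by edgeR's quasi-likelihood test, and 0 of these 9 had a Benjamini-Hochberg adjusted p under 0.05. Across all tested genes 0 of 11498 (0%) were called, so the pathway shares that outcome with the rest of the transcriptome. Among the tested genes Tgif1 stood farthest below LPS at 0.868-fold, and Tgfbr1 farthest above at 1.26-fold. At an unadjusted p under 0.05 there were 2 of 9, Skil and Tgif1, against 6.51% of all genes. All 3 libraries with 3A2 lay beyond all 3 with LPS for 1 of 9, Tgif1, against 12.3% of all genes (6.46% with the libraries with 3A2 lower and 5.84% with them higher). Without a filter on low counts 0 of 10 passed. The same filter-free fit had 3 of 10 at an unadjusted p under 0.05, against 1120 of 18179 genes. DESeq2 and limma-voom called 0 of 9 as well. At an unadjusted p under 0.05 DESeq2 had 0 of 9, against 379 of 11498 genes. By limma-voom there were 2 of 9 at that level, against 730 of 11498 genes.

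**Figure D1:**
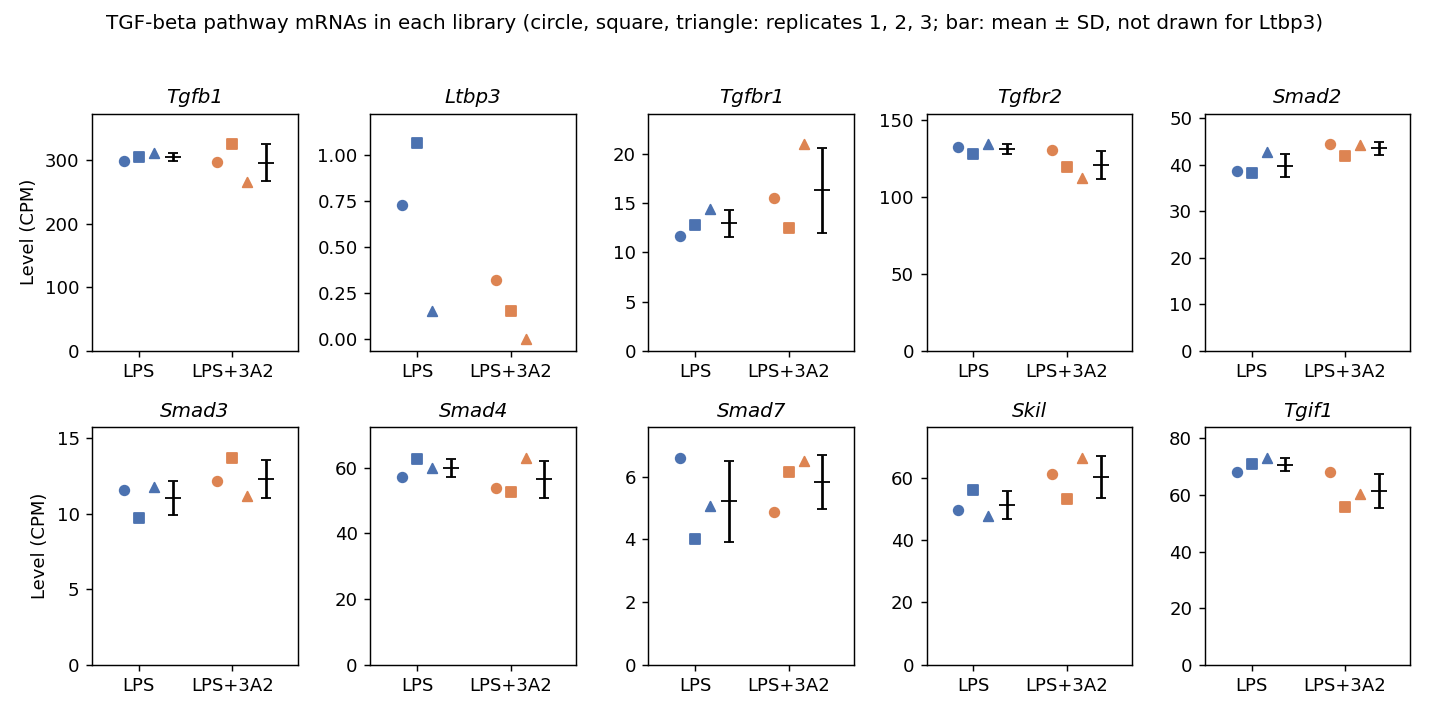
Level in CPM (vertical axis, with 0 shown) of each of the 10 mRNAs in the 3 LPS libraries and the 3 LPS plus 3A2 libraries, 1 point a library, with the mean and SD beside each group except for Ltbp3. For Tgif1 the points of the groups are separate, from 68.3 to 72.9 CPM with LPS and from 55.8 to 68.0 CPM with 3A2, and for the other 9 genes they overlap.

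The ligand mRNA Tgfb1 was abundant in every library. It measured 299, 305 and 311 CPM with LPS and 297, 324 and 265 CPM with 3A2, replicates 1 to 3 in each case. The libraries with 3A2 held both the highest value, in replicate 2, and the lowest, in replicate 3, and all LPS libraries lay between these. Tgfb1 stood at 0.97-fold (95% interval 0.876 to 1.07; edgeR adjusted p = 0.919). The direction rested on LPS plus 3A2 replicate 3: without it the log2 fold change was 0.028, against -0.044 with all libraries. The spread within a group was larger with 3A2, with a coefficient of variation (CV, the SD as a share of the mean) of 10.0% against 1.94% with LPS, where counting error alone gives 2.25%. That difference in spread was not tested.

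Ltbp3, which helps fold and secrete latent TGF-beta, was near the limit of detection. The counts were 5, 8 and 1 with LPS and 2, 1 and 0 with 3A2, or 14 against 3 in all. Pooled over unscaled totals, the LPS group stood at 0.676 CPM (exact 95% interval 0.37 to 1.13) and the group with 3A2 at 0.159 CPM (0.0329 to 0.466), where intervals reflect counting error alone. Where no read was found, a limit of 3 counts corresponds to 0.495 CPM. The ratio of LPS plus 3A2 to LPS was 0.236 with a counting interval of 0.0435 to 0.845. The groups overlapped, since LPS replicate 3 held 1 count, and permuting the 6 libraries gave p = 0.3 (exact permutation test, two-sided; 0.1 is the smallest possible value). Ltbp3 lay below the filter on low counts, and when no filter was applied the log2 fold change stood at -1.93 (SE 1.0; edgeR adjusted p = 0.811). The strand setting of the counting is not given, so the origin of these few reads is uncertain.

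Tgfbr1, the type I receptor kinase that phosphorylates SMAD2 and SMAD3, had the largest fold change among the tested genes of the set. It measured 11.7, 12.8 and 14.4 CPM with LPS and 15.5, 12.4 and 21 CPM with 3A2. Replicates 1 and 3 with 3A2 lay above all LPS libraries, and replicate 2 lay within them. The fold change was 1.26 (95% interval 0.977 to 1.61; edgeR adjusted p = 0.757). The estimate moved when single libraries with 3A2 were left out. On the log2 scale the change of 0.33 became 0.11 when LPS plus 3A2 replicate 3 was left out and 0.49 when LPS plus 3A2 replicate 2 was, where edgeR gave an adjusted p of 0.169. The fit without LPS plus 3A2 replicate 2 had 1752 of 11667 genes at an unadjusted p under 0.05, against 749 of 11498 with all libraries. Between 80 and 126 counts a library stand behind the Tgfbr1 values. Counting error alone gives a CV of 10.2%, against 10.5% observed with LPS and 26.5% with 3A2.

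Tgfbr2, the type II receptor that binds the ligand, measured 132, 128 and 134 CPM with LPS and 130, 119 and 112 CPM with 3A2. Replicates 2 and 3 with 3A2 lay below all LPS libraries, and replicate 1 lay among them. It stood at 0.92-fold (95% interval 0.828 to 1.02; edgeR adjusted p = 0.799), so that the receptor mRNAs lay on opposite sides of 1. Divided by exon length, Tgfbr2 mRNA exceeded Tgfbr1 mRNA by 8.84, 7.79 and 7.28 times in the LPS libraries and by 6.56, 7.52 and 4.20 times in the libraries with 3A2. The mean ratio was 7.97 ± 0.795 with LPS and 6.09 ± 1.71 with 3A2 (SD, n = 3). The groups overlapped (exact permutation test over libraries, two-sided p = 0.2, or 0.6 adjusted over the 3 ratios computed).

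Smad2 and Smad3 encode the receptor-activated SMADs, and both lay slightly above LPS. Smad2 measured 38.6, 38.2 and 42.8 CPM with LPS and 44.4, 41.9 and 44.3 CPM with 3A2. Only LPS replicate 3 reached into the range of the libraries with 3A2. The fold change of Smad2 was 1.09 (95% interval 0.953 to 1.25; edgeR adjusted p = 0.819). Smad3 measured 11.6, 9.75 and 11.8 CPM with LPS and 12.1, 13.7 and 11.2 CPM with 3A2, or 1.12-fold (0.891 to 1.41; edgeR adjusted p = 0.854). The highest value was that of LPS plus 3A2 replicate 2, while replicate 3 with 3A2 lay among the LPS libraries. Per exon length, Smad2 exceeded Smad3 by 2.15 ± 0.171 times with LPS and 2.11 ± 0.271 times with 3A2 (SD, n = 3; exact permutation p = 1), a difference smaller than the spread within either group.

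Smad4, the shared partner of the receptor-activated SMADs, measured 57.3, 62.6 and 59.8 CPM with LPS and 53.8, 52.7 and 62.8 CPM with 3A2. Replicates 1 and 2 with 3A2 lay below all LPS libraries, whereas replicate 3 was the highest of all 6. The fold change was 0.941 (95% interval 0.826 to 1.07; edgeR adjusted p = 0.861). On the log2 scale the change was -0.088, and -0.17 when LPS plus 3A2 replicate 3 was left out.

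Smad7, the inhibitory SMAD that blocks the type I receptor and is itself induced by TGF-beta, was the least abundant of the tested genes. Its counts ran from 30 to 45 a library, which is 6.58, 4.01 and 5.06 CPM with LPS and 4.86, 6.15 and 6.50 CPM with 3A2. The groups overlapped almost completely. It stood at 1.12-fold (95% interval 0.792 to 1.59; edgeR adjusted p = 0.91), the widest interval of the set, and counting error alone gives a CV of 16.6%. The estimate moved with single LPS libraries, from a log2 fold change of 0.0016 without replicate 2 to 0.37 without replicate 1.

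Skil and Tgif1 encode corepressors that bind SMADs in the nucleus, and they had the smallest p-values of the set, in opposite directions. Skil (also called SnoN), which SMADs induce and which then represses them, measured 49.7, 56.1 and 47.7 CPM with LPS and 61.2, 53.0 and 66.2 CPM with 3A2. Replicates 1 and 3 with 3A2 lay above all LPS libraries, and replicate 2 lay below the highest of them. The fold change was 1.17 (95% interval 1.02 to 1.35; edgeR unadjusted p = 0.0286, adjusted p = 0.743). Without LPS plus 3A2 replicate 2 the adjusted p was 0.124, the smallest that any gene of the set reached under the alternatives tried. Without LPS plus 3A2 replicate 3 the log2 fold change was 0.15, against 0.23 with all libraries.

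Tgif1, a homeodomain corepressor, measured 68.3, 70.9 and 72.9 CPM with LPS and 68.0, 55.8 and 60.5 CPM with 3A2. The groups did not overlap, although LPS plus 3A2 replicate 1 lay only just below LPS replicate 1. The fold change was 0.868 (95% interval 0.766 to 0.984; edgeR unadjusted p = 0.0293, adjusted p = 0.743). With each library left out in turn the log2 fold change ran from -0.28 without LPS plus 3A2 replicate 1 to -0.14 without LPS plus 3A2 replicate 2.

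**Figure D2:**
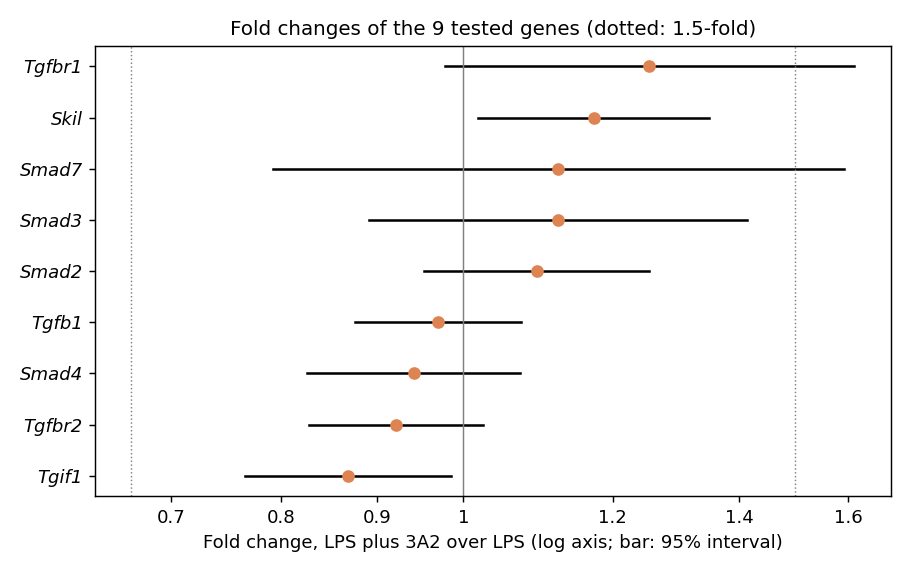
Fold change of LPS plus 3A2 over LPS on a log axis for the 9 tested genes, with points for the edgeR estimate and bars for its 95% interval; dotted lines mark 1.5-fold in either direction. The intervals of Skil (1.02 to 1.35) and Tgif1 (0.766 to 0.984) leave out 1 before adjustment, and those of Tgfbr1 and Smad7 alone reach past 1.5-fold.

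**Figure D3:**
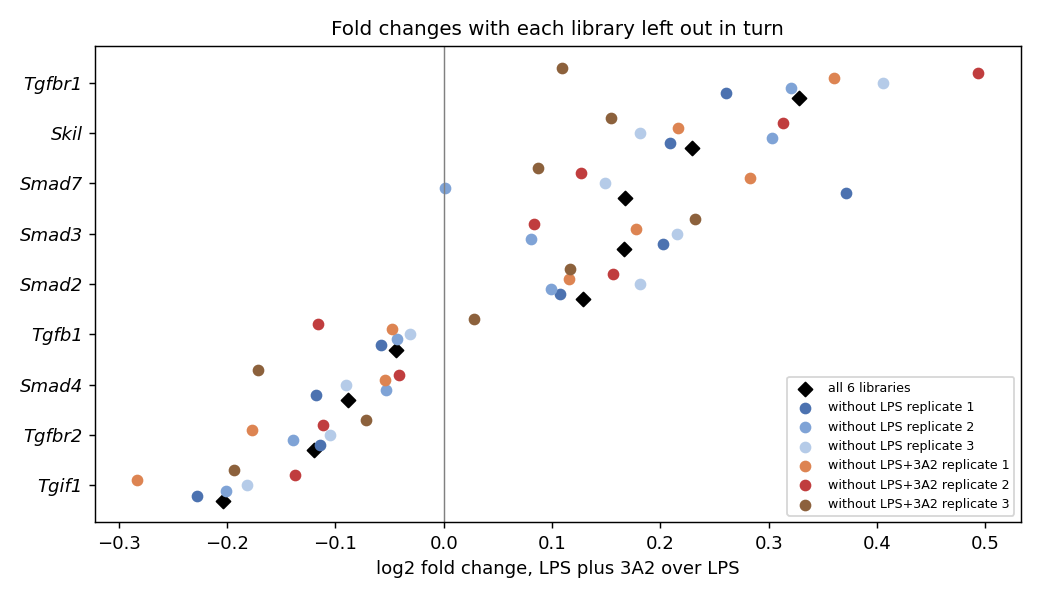
The log2 fold change of each of the 9 tested genes with all 6 libraries (diamond) and with each library left out in turn (circles). Tgfb1 changes sign without LPS plus 3A2 replicate 3, and Tgfbr1 runs from 0.11 to 0.49.

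Promoter sequences are shown for the receptors and for Tgif1, since Tgfbr1 and Tgif1 were the ends of the range of fold changes among the 9 tested genes and Tgfbr2 is the binding partner of Tgfbr1. They are the 250 bases before a RefSeq transcription start in build GRCm38.p6, and only the most upstream of the listed starts is printed for Tgfbr1 and Tgif1. Capitals mark the SMAD box CAGAC, which SMAD3 and SMAD4 are known to bind, searched on both strands (CAGAC or GTCTG).
Tgfbr1, chr4:47352972-47353221, plus strand: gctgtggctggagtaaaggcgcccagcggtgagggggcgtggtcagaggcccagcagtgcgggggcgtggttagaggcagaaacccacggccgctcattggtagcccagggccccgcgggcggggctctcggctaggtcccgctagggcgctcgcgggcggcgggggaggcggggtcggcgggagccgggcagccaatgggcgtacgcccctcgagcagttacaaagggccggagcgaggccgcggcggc
Tgfbr2, chr9:116175364-116175613, minus strand: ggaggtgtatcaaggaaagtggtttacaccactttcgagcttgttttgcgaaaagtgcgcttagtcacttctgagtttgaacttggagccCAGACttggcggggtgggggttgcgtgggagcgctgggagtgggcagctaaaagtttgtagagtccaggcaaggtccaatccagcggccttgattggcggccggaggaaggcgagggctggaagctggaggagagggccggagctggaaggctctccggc
Tgif1, chr17:70853533-70853782, minus strand: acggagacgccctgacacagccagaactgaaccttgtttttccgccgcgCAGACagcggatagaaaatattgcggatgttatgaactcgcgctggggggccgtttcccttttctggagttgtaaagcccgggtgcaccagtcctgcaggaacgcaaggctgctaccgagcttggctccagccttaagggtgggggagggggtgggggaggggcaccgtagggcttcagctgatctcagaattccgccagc
The letters occur once in the window of Tgfbr2, with the first base 160 bases before the start, and once in that of Tgif1, 201 bases before it. Of the 4 further listed starts of Tgif1, the windows of 2 hold the letters, with 3 matches in all. They do not occur in the Tgfbr1 window, though a window at a second listed start of Tgfbr1 holds CAGAC 203 bases before that start. RefSeq windows were found for 6 of the 10 genes, and 4 of these 6 (Ltbp3, Tgfbr1, Tgfbr2 and Tgif1) hold the letters in at least 1 window. Over all genes with such windows the share is 45.8%, and over all windows it is 42.2%. A match is a description of the sequence and not a measured binding site.

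The levels of the genes within the cells were compared per kilobase of merged exons in the basic set of GENCODE M21. Tgfb1 was highest at 138 CPM per kb, above 96.6% of the tested genes. It was followed by Tgif1 at 28.7, Smad4 at 16.3, Tgfbr2 at 15.4, Skil at 8.28, Smad2 at 4.85, Smad3 at 2.29, Tgfbr1 at 2.28, Smad7 at 1.26 and Ltbp3 at 0.078 CPM per kb. Neighbours in that order were separate in all 6 libraries except for Smad4 and Tgfbr2, in order in 4 of 6, and Smad3 and Tgfbr1, in order in 3 of 6. The ligand, the type II receptor and Smad4 were thus well above the type I receptor and the receptor-activated SMADs in mRNA per length. The authors' annotation is not given in the sources used here, and with merged exons of all GENCODE transcripts Tgfb1 stood at 59.6 CPM per kb and Tgif1 at 11.7, below Smad4 and Tgfbr2. The excess of Smad4 over Smad7 was 14.8 ± 4.25 times with LPS and 12 ± 1.53 times with 3A2 (SD, n = 3; exact permutation p = 0.4, or 0.6 adjusted over the 3 ratios).

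As a set, 5 of the 9 tested genes lay above 0 on the log2 scale and 4 below, with a median log2 fold change of 0.13 against 0.0017 over all genes tested. The median size of the change, whichever its direction, was 0.17 on the log2 scale, against 0.095 over all genes. The 95% interval lay within 1.5-fold for 7 of 9, against 79.6% of all genes, and within 2-fold for 9 of 9, against 94.1%. The ligand, the signal-transducing SMAD2, SMAD3 and SMAD4, the type II receptor and both corepressors are the 7 within 1.5-fold. Their mRNA differed by less than that between the groups at the 95% level of each single interval. LPS plus 3A2 replicate 3, the library with the highest mitochondrial mRNA, was also, among the tested genes of the set, the highest of all 6 for Tgfbr1, Smad4 and Skil and the lowest for Tgfb1 and Tgfbr2. For Smad4 the lead was small, 62.8 CPM against 62.6 CPM in LPS replicate 2. The same tally was not made for the other libraries or over all genes, so it does not single this library out. Without LPS plus 3A2 replicate 3, 6 of 9 lay above 0 and 3 below, and the median log2 fold change was 0.087. The median was 0.0016 without LPS replicate 2, close to that of all genes, and 0.046 over the 10 genes with no filter on low counts.

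The wider pathway was followed in 82 further genes, of which 56 were tested and 0 passed over all genes by edgeR. Of the 56, 28 lay above 0 and 28 below, with a median log2 fold change of 0.00019. At an unadjusted p under 0.05 there were 6, 5 higher and 1 lower, against 3.43% of all genes higher and 3.09% lower. The groups did not overlap for 8 of the 56, 6 higher and 2 lower, against 12.3% of all genes.

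Among the other ligands and latency proteins, 1 of 5 tested genes lay above 0 and 4 below. Tgfb3, a second TGF-beta ligand, held 27 counts over the LPS group and 46 with 3A2, or 1.61, 1.34 and 0.919 CPM against 3.24, 1.84 and 2.33 CPM. The groups did not overlap, and the fold change was 1.89 (95% interval 1.07 to 3.34; edgeR adjusted p = 0.743). Tgfb2 held 3 counts with LPS and 1 with 3A2. Furin, the protease that cuts the TGF-beta precursor, stood at 0.918-fold (0.826 to 1.02), and Ltbp2 at 0.691-fold (0.436 to 1.1). Nrros, which anchors latent TGF-beta on macrophages, was the most abundant anchoring gene with 79.8 ± 3.89 CPM under LPS and 78.1 ± 3.87 CPM when 3A2 was added (SD, n = 3), whereas Lrrc32, its counterpart on regulatory T cells, held 2 and 0 counts.

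Activators of latent TGF-beta had 3 of 5 tested genes above 0 and 2 below. The integrin chain Itgav measured 236, 224 and 212 CPM with LPS and 258, 238 and 287 CPM with 3A2, without overlap. Its fold change was 1.16 (95% interval 1.05 to 1.29, edgeR adjusted p = 0.719). Plau, the urokinase that generates plasmin, measured 329, 321 and 349 CPM against 363, 376 and 369 CPM, or 1.11-fold (95% interval 1.02 to 1.21; edgeR adjusted p = 0.734). Of the integrin partners that bind latent TGF-beta with the Itgav product, Itgb6 held 0 counts in all libraries and Itgb8 held 1 with LPS and 3 with 3A2, while Itgb5 measured 35.4 ± 1.6 and 35.1 ± 6.38 CPM (SD, n = 3). Mmp14 itself, the antibody's target, held 1, 5 and 0 counts with LPS and 2, 6 and 3 with 3A2. That is 6 and 11 in all, below the filter on low counts, so Mmp14 was not tested. The antibody acts on the protein, so the Mmp14 mRNA does not check the treatment.

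Genes that respond to TGF-beta in many cell types had 7 of 10 tested members above 0 and 3 below, with a median log2 fold change of 0.021. The list was not split by the direction of the response, so the tally does not describe the activity of the pathway. Id2, an inhibitor of helix-loop-helix factors that TGF-beta represses in some cells, stood at 1.3-fold (0.993 to 1.69) and Junb at 0.926-fold (0.841 to 1.02). Tgfbi, Ccn2 and Cdkn2b, also common targets, held 0 counts in all libraries. Among genes known to depend on TGF-beta in microglia and resident macrophages, 3 of 8 were tested, with 1 above 0 and 2 below. P2ry12, Tmem119, Sall1 and Gpr34 held at most 1 count per group. Axl stood at 0.89-fold (95% interval 0.702 to 1.13), and its groups overlapped. Cx3cr1, the fractalkine receptor, measured 111, 102 and 117 CPM with LPS and 100, 87.9 and 89.2 CPM with 3A2, or 0.84-fold (0.749 to 0.942; edgeR adjusted p = 0.719). All libraries with 3A2 lay below all LPS libraries. The 7 general macrophage markers stood between 0.864-fold (Spi1) and 1.03-fold (Adgre1). Whether the lower Cx3cr1 belongs to the pathway or to macrophage genes in general was not tested.

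Among the further pathway genes, regulators inside the cell showed no gene at an unadjusted p under 0.05 outside the TAK1 branch. Of 13 tested regulators of receptors and SMADs 7 lay above 0 and 6 below, with the deubiquitinase Usp15 at 1.08-fold (95% interval 0.966 to 1.21), Tgif2, the paralog of Tgif1, at 1.12-fold (0.914 to 1.37) and Ldlrad4 at 0.801-fold (0.511 to 1.26). Smad6, the inhibitory SMAD of the bone morphogenetic protein (BMP) branch, held 33 and 32 counts, and Ski, the paralog of Skil, stood at 0.956-fold (0.804 to 1.14). Of 5 nuclear partners 2 lay above 0 and 3 below, with Runx1 at 0.862-fold (0.741 to 1.0), the acetyltransferase gene Ep300 at 0.916-fold (0.822 to 1.02) and Runx3 at 0.902-fold (0.712 to 1.14). In the branch of TRAF6 and the kinase TAK1, 4 of 5 lay above 0 and 1 below. Traf6, which Toll-like receptors use too, measured 40.4, 39.3 and 36.6 CPM with LPS and 43.9, 43.9 and 50.5 CPM with 3A2, or 1.19-fold (1.03 to 1.37; edgeR adjusted p = 0.719). The BMP and activin branch had 2 of 8 tested genes above 0 and 6 below, with a median log2 fold change of -0.012. Of the co-receptors, Eng stood at 0.946-fold and Tgfbr3 held 0 counts. Acvrl1, a type I receptor grouped with them here, stood at 1.03-fold.

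**Figure D4:**
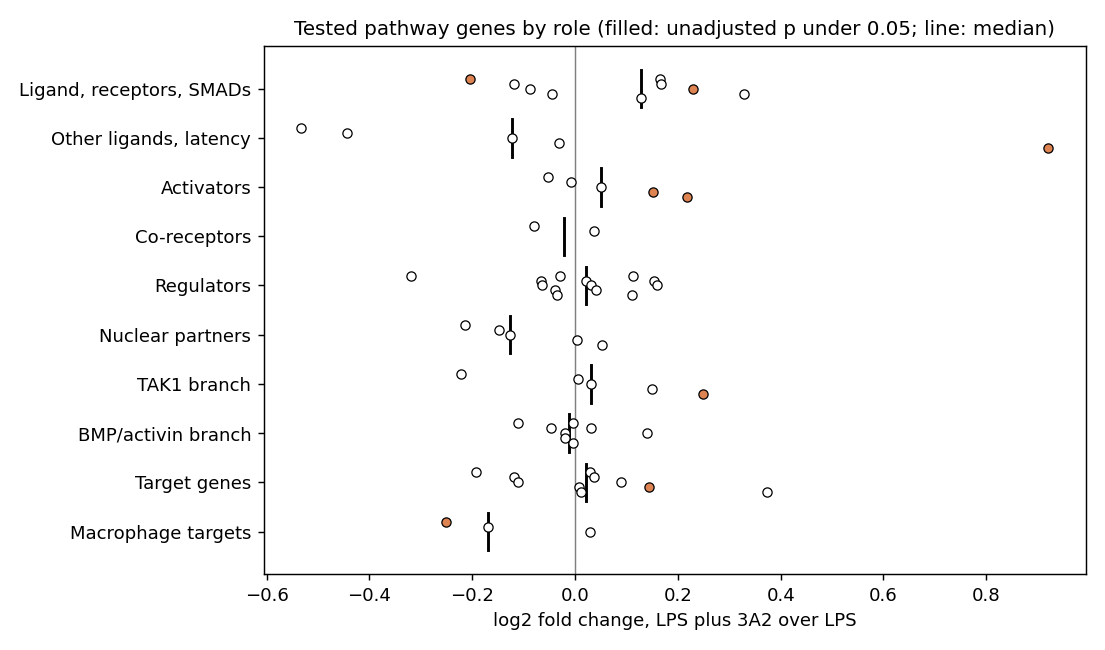
The log2 fold change of LPS plus 3A2 over LPS for the 9 tested core genes and 56 further pathway genes, 1 point a gene, by role; filled points have an unadjusted p under 0.05 and vertical lines are medians. Points scatter on both sides of 0 in every row, and 0 of them passed over all genes.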

How the data were processed

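Total RNA was depleted of ribosomal RNA and sequenced from strand-specific paired-end libraries, per the labels' protocols. The authors deposited raw read counts per gene symbol, 1 column a library; per the submitters' processing notes, HISAT2 and edgeR were used, with no version or role stated. These notes name the build GRCh38, while 39282 of 40773 symbols match RefSeq genes of mouse GRCm38, so no gene coordinates are given from the table. How reads were counted, with which annotation and strand setting, is not given in the sources used here. Cells typed into unnamed columns were not used.

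Counts were filtered with filterByExpr (11498 genes kept) and then TMM-scaled. LPS plus 3A2 was compared with LPS by the two-sided quasi-likelihood test (robust) of edgeR 4.0.16 under R 4.3.3, with Benjamini-Hochberg adjustment over all genes and a threshold of 0.05. Intervals are at the 95% level. The biological coefficient of variation was 0.0768. No library pair agreed within sampling noise (chi-square per degree of freedom of at least 3.33). Named genes were all core genes and, per further list, up to 3 tested genes in order of p. Nrros, Itgb5, Smad6, Ski, Lyz2 and genes given by counts fall outside this, and they were picked with their values in view. The other macrophage markers fall outside it too, and all of them are given. Some genes the rule names are not reported here. The members and lists were chosen with earlier results of these data known. Alternatives were DESeq2 1.42.0 and its size factors, limma-voom (limma 3.58.1), other totals and filters, the replicate number as a block, leaving out each library and, added after the data were seen, other exon lengths.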

Additional observations from a re-analysis of the deposited data

How the results depend on the processing

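The count of core genes called was 0 under all 13 alternatives, as was that of further pathway genes. Over 117 values for the 9 tested core genes, 116 kept their direction, and 0 passed. The exception was Tgfb1, whose log2 fold change ran from -0.116 to 0.0284 over the fits that left out a library. Over 311 values for 24 further named genes, 304 kept their direction; with a library left out Itgb1 ran from -0.0331 to 0.102, Acvrl1 from -0.0749 to 0.164, Runx3 from -0.284 to 0.0473, and Smad1 from -0.13 to 0.0269. Over all genes 0 were called, against 16 without a filter on low counts and 1 with the replicate number as a replicate block. Leaving out a library gave 0 to 25 calls over all genes, with 25 without LPS plus 3A2 replicate 2. The labels do not say whether the replicate numbers pair the cultures. The correlations of deviations between same-numbered libraries were -0.0102, 0.0252 and -0.163, and those between differently numbered libraries ran from -0.169 to 0.168. With so few libraries a group these correlations cannot decide on pairing. The block changed no call for a core gene. Counting error alone was largest for Ltbp3, Smad7, Smad3 and Tgfbr1. For Tgfbr1 the CV with 3A2 was 26.5%, against 10.2% from counting error alone. The cause of the changes between fits was not tested.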
